A study of Mus musculus with 4 samples.

Results

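The genes described here are 10 muscle isozymes and partner proteins of energy metabolism, namely Ckm, Ckb, Ckmt2, Pygm, Pgam2, Eno3, Pfkm, Ampd1, Mb and Ak1. Ckb, a gene of brain and many other tissues, is counted with the muscle genes below, except in the family shares. The 10 genes were chosen by gene symbol from the 24445 genes of a table of RNA levels in mouse primary myoblasts. The rule used no measured level, but the list was drawn up with earlier results of these data known. Tet2 oxidises 5-methylcytosine in DNA, and to see how its absence bears on muscle precursors, RNA was sequenced from 2 WT and 2 Tet2 KO libraries, all of strain C57BL/6. Per the study's methods, exon 3 of Tet2 was deleted in the Tet2 KO mice by homologous recombination, so the deletion was not limited to muscle cells, and animals were young adult males unless stated otherwise. Muscle stem cells (satellite cells) of the hindlimb were sorted in both genotypes as CD45-, CD11b-, CD31- and Sca1- cells that excluded propidium iodide and carried CD34 and integrin alpha 7. They were grown in a proliferating medium on collagen for at least 3 days, until they had become MyoD+ myoblasts. How many animals stood behind each library was not given in the sources used here.

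Muscle regenerates ATP along several routes. Creatine kinase transfers phosphate between ATP and creatine, glycogen phosphorylase and glycolysis release energy from stored and imported sugar, and adenylate kinase and AMP deaminase handle the ADP and AMP left after contraction. Muscle fibres use their own isozyme of many of these enzymes, encoded by a gene apart from those used by brain, liver or most other tissues, and the muscle gene is generally switched on as myoblasts differentiate. Myoglobin, which binds oxygen within the fibre, belongs to the same equipment.

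Expression was read as FPKM, the fragment count of a gene scaled by transcript length and by all mapped fragments of the library, which allows levels to be compared between genes. The table held 1 FPKM value per gene and group. No error therefore stood beside either value, and no new test could be made across libraries. The authors' own test results, which the table also holds, were not used. Each difference below is that between a pair of group values, with no replicate check made here. A ratio is given as log2((Tet2 KO + 1) / (WT + 1)), which understates the difference of genes with low values, and counts were made over the 11692 genes with a mean of at least 1 FPKM over both groups.

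All 10 genes had a lower FPKM in Tet2 KO than in WT myoblasts. Of the 10, 8 passed the limit of 1 FPKM, while Ckmt2 and Ampd1 were near 0 in both groups and did not. Of the 8 genes above the limit, 2, Pgam2 and Mb, were lower by more than 2-fold, against 1.21% of all genes past 2-fold in that direction. At a limit of 1.5-fold, 6 of the 8 were lower, against 2.89% of all genes, and the other two were Eno3 and Ckb. None was higher past either limit, where the shares of all genes were 2.08% and 3.72%. The median ratio of the 8 genes was -0.89 (range -1.30 to -0.19), beside a median of -0.0044 over all genes, of which 51.2% were lower in Tet2 KO. Summed over the 10 genes, expression was 767 FPKM in WT and 490 FPKM in Tet2 KO, or 63.9% of the WT sum. In bulk RNA, fewer cells of a type and less RNA per cell cannot be told apart, and this holds for every level given here.

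**Figure D1:**
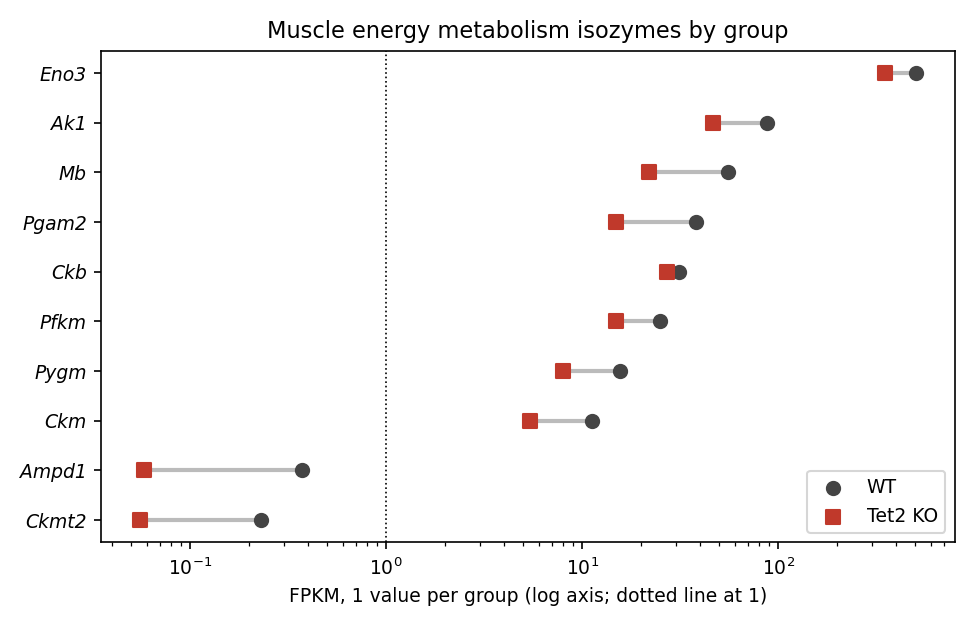
FPKM (log axis) of the 10 genes in WT and Tet2 KO myoblasts, 1 deposited value per group, with a line joining the values of each gene. Every gene lay lower in Tet2 KO, from Eno3 at 503 and 351 FPKM down to Ckmt2 at 0.230 and 0.0556 FPKM.

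Levels spanned a wide range. Eno3 alone made up 65.6% of the WT sum and 54.7% of the difference between the sums, Ak1 made up 14.9% of the difference, Mb 12.0% and Pgam2 8.32%. In WT the order from the highest level was Eno3, Ak1, Mb, Pgam2, Ckb, Pfkm, Pygm, Ckm, Ampd1 and Ckmt2. In Tet2 KO the order was the same except that Ckb stood above Mb and Pgam2, directly after Ak1. Without library values it is not known which neighbours in this order differ beyond their spread.

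The cells carried the markers of their label, while the lists of other cell types differed between the groups in direction and size. The myoblast list (Myod1, Myf5, Pax7, Des, Cdh15 and Itga7) summed to 1153 FPKM in WT and 1028 FPKM in Tet2 KO, with a median ratio of -0.10 and none of the 6 past 1.5-fold. As only 2.89% of all genes were lower and 3.72% higher past that limit, a count of 0 among 6 does not set the list apart. All 6 myocyte genes (Myog, Tmem8c, Acta1, Myh3, Tnnt2 and Actn2), which mark differentiated muscle cells, were lower by more than 2-fold in Tet2 KO, against 1.21% of all genes. Their median was -1.37 (range -1.60 to -1.04), with a sum of 1823 FPKM in WT and 723 FPKM in Tet2 KO. Myogenin (Myog) was at 554 FPKM in WT and 268 FPKM in Tet2 KO. All 6 leukocyte genes were higher in Tet2 KO, 5 of them past 2-fold, against 2.08% of all genes. They summed to 86.2 FPKM in WT and 347 FPKM in Tet2 KO, although the sort had removed CD45+ and CD11b+ cells. The leukocyte list ran from 1.36 FPKM (Ptprc) to 59.5 FPKM (Lyz2) in WT and from 5.67 FPKM to 253 FPKM in Tet2 KO for the same genes, and none was at 0. Lower sums were seen for the endothelial list, at 3.33 and 3.09 FPKM, and the adipocyte list, at 3.20 and 2.60 FPKM with Adipoq at 0 in both groups. The fibroblast list summed to 158 FPKM in WT and 183 FPKM in Tet2 KO, with 4 of 5 genes above the limit and each of them higher. Most of that sum was Col3a1, at 152 FPKM in WT and 171 FPKM in Tet2 KO. Of the 4 genes, 1 was past 1.5-fold, against 3.72% of all genes, namely Dcn at 3.15 and 7.04 FPKM. The 4 fibre genes Myh4, Myh2, Myh7 and Actn3 summed to 115 FPKM in WT and 47.2 FPKM in Tet2 KO. The 3 above the limit were lower by more than 2-fold, against 1.21% of all genes. The part of these lists in the values of the isozymes was not tested. Tet2 itself was at 6.64 FPKM in WT and 5.79 FPKM in Tet2 KO, a value over the whole gene that does not show whether exon 3 was absent.

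Creatine kinase is encoded by a muscle gene (Ckm), a gene of brain and many other tissues (Ckb) and genes for the mitochondrial enzymes (Ckmt2 in striated muscle, Ckmt1 elsewhere). Ckm, 8 exons on the plus strand at chr7:19996443-20006932 (mm9), was at 11.2 FPKM in WT and 5.40 FPKM in Tet2 KO. That is 48.3% of the WT level and a ratio of -0.93, and 1.36% of all genes had a ratio as low. Without the pseudocount the ratio was -1.05, past 2-fold. Ckb, 8 exons on the minus strand at chr12:112907566-112910549, was at 31.0 FPKM in WT and 27.1 FPKM in Tet2 KO. Its ratio of -0.19 was the smallest difference of the 8 genes, and 14.5% of all genes were as low. Ckb thus outweighed Ckm in both groups, and the share of Ckm in the FPKM of the family was 26.3% in WT and 16.5% in Tet2 KO. The value of Ckb is uncertain, because 95.3% of its transcript lies in stretches of at least 95% identity elsewhere in the genome, to which its reads could also have been assigned. The longest such copy, on chr4, was 96.8% identical over 1361 bases, and how many reads it drew is unknown. Ckmt2 (chr13:91992992-92016490, minus strand) was at 0.230 FPKM in WT and 0.0556 FPKM in Tet2 KO, levels at which a ratio carries little information. An antisense gene, A930016O22Rik, overlaps Ckm and was at 0.209 and 0.0998 FPKM, far below it. The library kit did not mark strand, so reads of overlapping genes on opposite strands cannot be told apart. The promoters of the pair that differed are shown here as RefSeq windows of GRCm38.p6, a build other than that of the table, from 250 bases before to 50 bases after the transcript start, 5′ to 3′ on the gene's strand. Capitals mark the E-boxes (CANNTG, where N is any base), the sequence bound by MyoD, myogenin and related factors. Ckm lies at chr7:19410844-19411143 on the plus strand and holds 1 E-box with the core CAGCTG, the form those factors favour, at the far end of the window. Ckb lies at chr12:111672289-111672588 on the minus strand and holds none.
Ckm: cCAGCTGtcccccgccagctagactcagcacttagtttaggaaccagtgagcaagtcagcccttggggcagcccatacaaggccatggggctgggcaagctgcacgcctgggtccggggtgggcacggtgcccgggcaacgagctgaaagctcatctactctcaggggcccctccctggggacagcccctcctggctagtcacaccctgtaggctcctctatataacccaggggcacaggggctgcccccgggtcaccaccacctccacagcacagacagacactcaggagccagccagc
Ckb: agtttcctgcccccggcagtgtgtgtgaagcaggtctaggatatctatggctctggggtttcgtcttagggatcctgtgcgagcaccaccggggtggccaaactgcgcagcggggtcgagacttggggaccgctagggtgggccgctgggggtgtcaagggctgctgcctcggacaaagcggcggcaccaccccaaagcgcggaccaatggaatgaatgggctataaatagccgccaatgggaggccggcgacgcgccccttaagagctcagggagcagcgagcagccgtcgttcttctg

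Glycogen phosphorylase releases glucose units from glycogen. Pygm, its muscle gene (20 exons, plus strand, chr19:6384408-6398464 in mm9), was at 15.5 FPKM in WT and 8.0 FPKM in Tet2 KO, 51.5% of the WT level. The ratio was -0.88, and 1.57% of all genes were as low. The brain gene Pygb was at 17.5 FPKM in WT and 14.0 FPKM in Tet2 KO, a ratio of -0.30. The liver gene Pygl went the other way, at 2.17 FPKM in WT and 5.60 FPKM in Tet2 KO, a ratio of 1.06. Pygb and Pygl together summed to 19.7 FPKM in WT and 19.6 FPKM in Tet2 KO, and this flat sum holds a lower Pygb and a higher Pygl. The family sum was 78.4% of WT, and the share of Pygm was 44.1% in WT and 28.9% in Tet2 KO. Pygl is also expressed in leukocytes, whose marker list was higher in Tet2 KO as given above, and the part of that list in the value was not tested. The promoter windows of the muscle and the brain gene differed in their E-boxes. That of Pygm (chr19:6384158-6384457, plus strand, GRCm38.p6) holds 3, of which 2 are CAGCTG. That of Pygb (chr2:150786546-150786845, plus strand) holds none.
Pygm: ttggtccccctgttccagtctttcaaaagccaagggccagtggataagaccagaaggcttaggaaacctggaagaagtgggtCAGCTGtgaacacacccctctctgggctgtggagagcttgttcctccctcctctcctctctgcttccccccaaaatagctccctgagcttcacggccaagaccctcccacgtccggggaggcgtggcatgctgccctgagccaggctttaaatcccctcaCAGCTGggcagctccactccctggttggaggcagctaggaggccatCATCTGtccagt
Pygb: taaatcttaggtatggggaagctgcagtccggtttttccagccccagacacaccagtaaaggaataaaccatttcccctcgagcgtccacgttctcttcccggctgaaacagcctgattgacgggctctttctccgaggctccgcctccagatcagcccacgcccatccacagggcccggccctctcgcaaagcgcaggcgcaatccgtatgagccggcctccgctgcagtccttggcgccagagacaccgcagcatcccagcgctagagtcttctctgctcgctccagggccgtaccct

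Among the glycolytic enzymes, Pgam2 stood lowest relative to WT. Pgam2 encodes the muscle phosphoglycerate mutase, which moves the phosphate of 3-phosphoglycerate, in 3 exons on the minus strand at chr11:5701640-5703799 (mm9). It was at 37.9 FPKM in WT and 14.9 FPKM in Tet2 KO, 39.2% of the WT level, a ratio of -1.29 that 0.624% of all genes reached. Pgam1, the gene used in most tissues, was at 234 FPKM in WT and 262 FPKM in Tet2 KO, a ratio of 0.17. The sum of both was 102% of WT, and the share of Pgam2 in it was 14.0% in WT and 5.37% in Tet2 KO. The value of Pgam1 is uncertain, since 94.7% of its transcript has near-identical copies elsewhere in the genome, while Pgam2 had none. The promoter windows are shown for this pair because its muscle gene had the largest relative difference of the glycolytic members. That of Pgam2 (chr11:5803747-5804046, minus strand, GRCm38.p6) holds 5 E-boxes, 1 of them CAGCTG, and 1 CpG. That of Pgam1 (chr19:41911621-41911920, plus strand) holds no E-box and 30 CpG.
Pgam2: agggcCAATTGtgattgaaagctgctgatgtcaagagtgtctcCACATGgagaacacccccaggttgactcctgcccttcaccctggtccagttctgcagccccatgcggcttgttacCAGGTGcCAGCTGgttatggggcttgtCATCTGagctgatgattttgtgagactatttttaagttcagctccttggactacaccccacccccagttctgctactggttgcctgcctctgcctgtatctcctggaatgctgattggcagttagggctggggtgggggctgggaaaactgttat
Pgam1: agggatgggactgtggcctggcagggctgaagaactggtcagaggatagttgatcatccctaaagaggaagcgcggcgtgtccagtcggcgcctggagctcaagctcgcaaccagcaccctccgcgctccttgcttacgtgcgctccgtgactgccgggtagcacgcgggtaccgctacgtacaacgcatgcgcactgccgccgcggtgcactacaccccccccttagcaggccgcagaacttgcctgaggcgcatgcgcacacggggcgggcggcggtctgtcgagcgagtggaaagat

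Phosphofructokinase commits sugar to glycolysis. Pfkm, its muscle gene, was at 24.9 FPKM in WT and 14.8 FPKM in Tet2 KO, 59.7% of the WT level and a ratio of -0.71. The liver gene Pfkl was at 46.9 FPKM in WT and 52.4 FPKM in Tet2 KO, and the platelet gene Pfkp at 21.0 and 21.8 FPKM, ratios of 0.16 and 0.05. The family sum was 96.0% of WT, with a share of Pfkm of 26.8% in WT and 16.7% in Tet2 KO. Pfkm has 23 exons at chr15:97923020-97962878 on the plus strand in the GENCODE annotation of mm9. In the deposited table it shares 1 merged locus with Senp1, on the minus strand, which was at 11.1 FPKM in WT and 12.1 FPKM in Tet2 KO.

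Enolase, which forms phosphoenolpyruvate, showed the largest absolute difference. Eno3, its muscle gene (12 exons, plus strand, chr11:70470678-70476015), was at 503 FPKM in WT and 351 FPKM in Tet2 KO, 69.8% of the WT level. Its ratio of -0.52 was short of 1.5-fold, and 3.41% of all genes were as low. Eno1, the gene used in most tissues, was at 711 FPKM in WT and 618 FPKM in Tet2 KO, a ratio of -0.20. The share of Eno3 was 41.4% in WT and 36.2% in Tet2 KO, the smallest relative shift among the 5 families in the plot of shares. This share depends on how Eno1 is counted. The table lists Eno1b at the same coordinates as Eno1, at 65.0 FPKM in WT and 137 FPKM in Tet2 KO, and the pair summed to 776 and 754 FPKM. With Eno1b in the family the share of Eno3 was 39.3% in WT and 31.7% in Tet2 KO. Copies of at least 95% identity elsewhere cover 85.6% of the Eno1 transcript and none of that of Eno3.

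**Figure D2:**
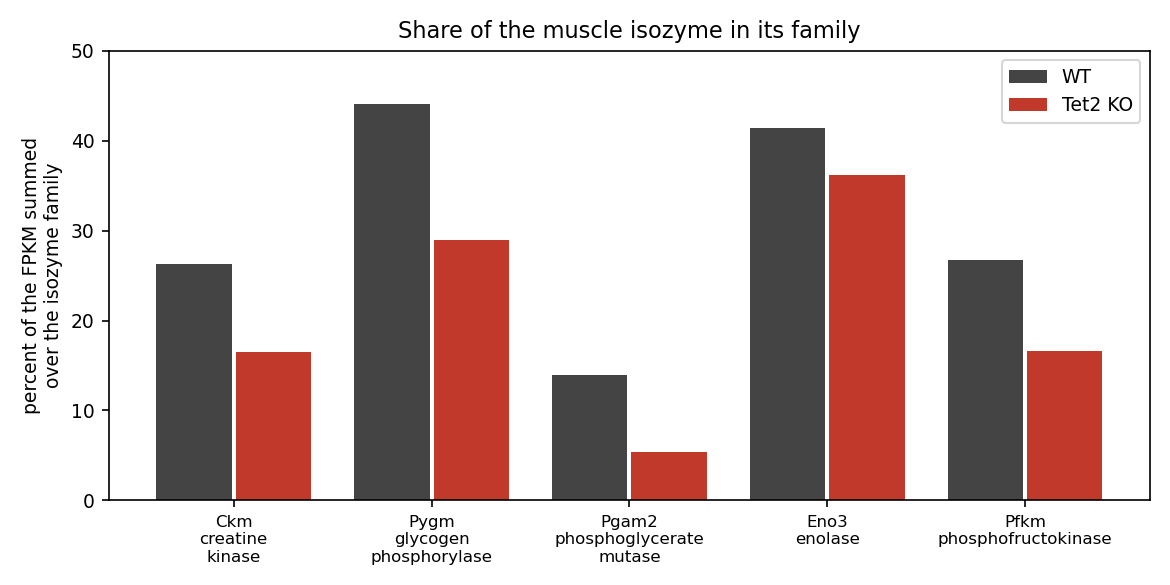
Percent of the FPKM summed over an isozyme family that came from its muscle gene, in WT and Tet2 KO myoblasts, 1 value per group for 5 families. The muscle share was lower in Tet2 KO in each, by least for enolase (41.4% and 36.2%) and with a ratio of 2.60 for phosphoglycerate mutase (14.0% and 5.37%).

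Adenylate kinase interconverts ATP, ADP and AMP, and AMP deaminase removes the amino group of AMP. Ak1, the cytosolic adenylate kinase that is abundant in muscle (7 exons, plus strand, chr2:32477278-32490578 in mm9), was at 87.9 FPKM in WT and 46.6 FPKM in Tet2 KO. That is 53.0% of the WT level, a ratio of -0.90, and 1.48% of all genes were as low. Smaller differences were found for Ak3, Ak4 and Ak5. The mitochondrial Ak3 was at 16.9 FPKM in WT and 16.3 FPKM in Tet2 KO. Ak4 was at 7.02 and 8.27 FPKM, with near-identical copies of 31.8% of its transcript, and Ak5 at 0.994 and 1.47 FPKM. The ratios of these 3 genes ranged from -0.05 to 0.31. Ampd1, the muscle AMP deaminase (chr3:102877937-102903643, plus strand), was at 0.371 FPKM in WT and 0.0583 FPKM in Tet2 KO, 1.35% and 0.204% of its family. The family was carried by Ampd2, at 22.0 and 22.6 FPKM, and Ampd3, at 5.08 and 5.90 FPKM. Thus little of the muscle isozyme was found in myoblasts of either genotype for AMP deaminase, as for the mitochondrial creatine kinase.

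Myoglobin (Mb) had no isozyme partner at a comparable level. Mb, 3 exons at chr15:76845919-76881100 on the minus strand in the GENCODE annotation of mm9, was at 55.2 FPKM in WT and 21.8 FPKM in Tet2 KO. That is 39.5% of the WT level and a ratio of -1.30, which 0.607% of all genes reached. Mb and Pgam2 had nearly the same ratio, and their order depended on the pseudocount. The globin of many other cell types, Cygb, stayed below the limit in both groups, and Mb made up 98.7% of their sum in WT and 97.4% in Tet2 KO. In the table Mb shares 1 merged locus with Apol6, on the plus strand, at 27.5 FPKM in WT and 27.3 FPKM in Tet2 KO, and reads of that pair cannot be told apart by strand. RefSeq gives Mb 3 promoter windows, and the second (chr15:77022738-77023037, minus strand, GRCm38.p6) is shown because it holds CAGCTG. It has 3 E-boxes, 1 of them CAGCTG, and 1 CpG. The third window overlaps it and holds CAGCTG as well, with 2 CpG, while the first holds 2 E-boxes, no CAGCTG and 9 CpG.
Mb: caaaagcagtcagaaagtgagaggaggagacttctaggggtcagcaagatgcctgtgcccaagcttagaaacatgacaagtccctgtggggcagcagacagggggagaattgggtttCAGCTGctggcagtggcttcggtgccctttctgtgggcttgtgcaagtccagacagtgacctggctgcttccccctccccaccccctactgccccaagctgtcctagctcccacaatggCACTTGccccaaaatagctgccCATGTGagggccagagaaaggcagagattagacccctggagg

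**Figure D3:**
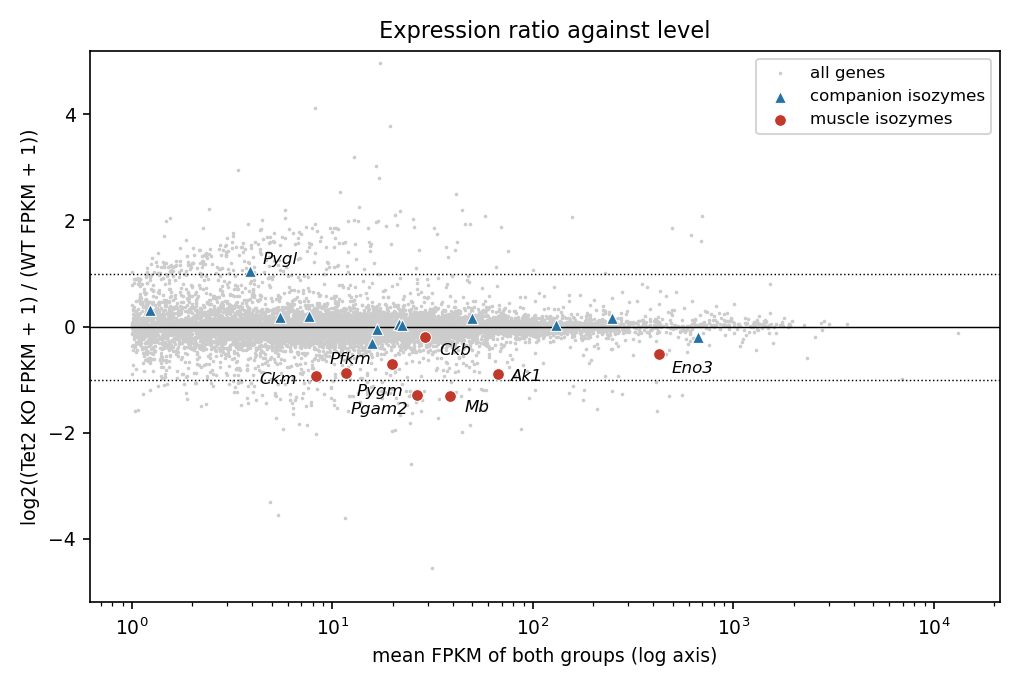
log2((Tet2 KO FPKM + 1) / (WT FPKM + 1)) against the mean FPKM of both groups (log axis) for the 11692 genes with a mean of at least 1 FPKM, with the muscle isozymes as circles, the companion isozymes as triangles and 2-fold differences as dotted lines. The 8 members lie between -1.30 and -0.19, the latter being Ckb, a gene of many tissues, and the 12 companions between -0.30 and 1.06.

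The genes that encode the same activities in other tissues lay nearer to their WT level. Of 15 companion isozymes, 12 passed the limit of 1 FPKM, 9 with a higher and 3 with a lower value in Tet2 KO. Their median ratio was 0.10, and 1 of the 12 (Pygl) was past 2-fold, in the higher direction, where the share of all genes was 2.08%. No companion was lower past 1.5-fold, where the share of all genes was 2.89%, so that about as many would be found among any 12 genes. Ckmt1, Eno2 and Cygb did not pass the limit. Eno1b, at the coordinates of Eno1, was not on the companion list. The value of Eno1 depends on how reads were split between them, and their sum had a ratio of -0.04. The ratios of the 8 members and of the 12 companions overlapped. Ckb, itself a gene of brain and many other tissues, lay on one side, and Pygb and Eno1 on the other. No test of the difference could be made over samples. Total activity of a family was not measured, but the summed FPKM in Tet2 KO was between 76.9% (creatine kinase) and 104% (AMP deaminase) of WT in the 6 enzyme families other than adenylate kinase.

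Other genes of these pathways had a median ratio closer to that of all genes than the muscle isozymes had. Of a list of 50, 40 passed the limit, 13 with a higher and 27 with a lower value in Tet2 KO and a median ratio of -0.11. Past 2-fold, 4 of the 40 were lower, against 1.21% of all genes, and 1 was higher, against 2.08%. Past 1.5-fold, 8 of the 40 were lower, against 2.89% of all genes, and 1 was higher, against 3.72%. The share of lower genes was thus above that of all genes at both limits. Adssl1, the muscle adenylosuccinate synthetase, which works with Ampd1 in the purine nucleotide cycle, was at 10.9 FPKM in WT and 4.35 FPKM in Tet2 KO, a ratio of -1.15. Prkag3, a regulatory subunit of the AMP-activated kinase in fast muscle, was at 5.05 and 1.92 FPKM, a ratio of -1.05. Cox6a2 and Cox8b, the heart and muscle forms of cytochrome oxidase subunits, were at 8.32 and 15.3 FPKM in WT and 2.61 and 5.23 FPKM in Tet2 KO, ratios of -1.37 and -1.39. Some other muscle forms of the list were not past 1.5-fold, among them Cox7a1 (ratio -0.27) and Gys1 (ratio -0.32). Slc2a4 (ratio -0.60) and Fabp3 (ratio -0.73) were lower past that limit. These 4 genes were named after their values were seen. The higher gene was Cd36, a fatty acid carrier of muscle, fat and macrophages, at 2.16 FPKM in WT and 7.35 FPKM in Tet2 KO, a ratio of 1.40. The part of the leukocyte list in this value was not tested. The 2 genes of the list with the highest mean FPKM, both glycolytic, lay near their WT level. Pkm was at 1252 FPKM in WT and 1373 FPKM in Tet2 KO, and Aldoa at 998 and 1009 FPKM, ratios of 0.13 and 0.02.

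**Figure D4:**
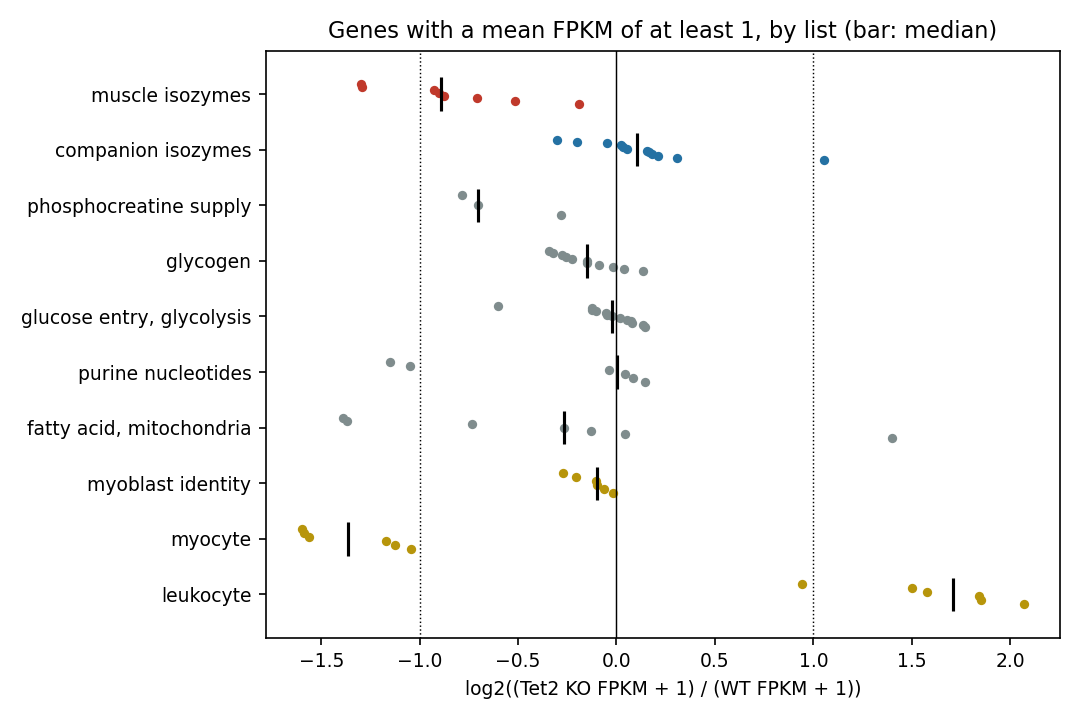
log2((Tet2 KO FPKM + 1) / (WT FPKM + 1)) of each gene above a mean of 1 FPKM in the muscle isozymes, their companions, the other pathway genes by part, and 3 marker lists, with 1 point per gene, a bar at each median and 2-fold differences as dotted lines. The muscle isozymes (median -0.89) lie between the myoblast list (median -0.10) and the myocyte list (median -1.37).

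By part of the pathway, the list was uneven. Past 1.5-fold, 2.89% of all genes were lower and 3.72% higher. For phosphocreatine supply, all 3 genes were lower, with a median of -0.70, 2 of them past 1.5-fold and none past 2-fold. Of 16 genes around glycogen, 11 passed the limit, with a median of -0.15, a range of -0.34 to 0.13 and none past 1.5-fold. Given the shares of all genes, a count of 0 among 11 does not set them apart. Glucose entry and glycolysis had a median of -0.02 over 13 genes, 7 of them lower and 1 of these past 1.5-fold. The purine list had a median of 0.00 over 6 genes, 2 of them lower past 2-fold, against 1.21% of all genes. The list of oxygen, fatty acid and muscle mitochondria had a median of -0.27 over 7 genes. Past 1.5-fold, 3 of these 7 were lower and 1 was higher.

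For each of the 10 genes the nearest gene with a mean of at least 1 FPKM was taken on either side of its deposited locus. This gave 20 genes at distances of 656 to 965342 bases. Genes inside a merged locus, such as Senp1 with Pfkm and Apol6 with Mb, were not counted. None of the 20 was past 1.5-fold, where the share of all genes was 3.72% higher and 2.89% lower, so that a count of 0 among 20 does not set them apart, and their median ratio was -0.03 (range -0.45 to 0.23). Dbnl, 656 bases from Pgam2, was at 37.2 FPKM in WT and 40.5 FPKM in Tet2 KO, and Polm, on the other side, at 1.49 and 1.35 FPKM. Beside Mb, 1110038F14Rik was at 28.4 and 33.4 FPKM and 1700109K24Rik at 5.03 and 4.42 FPKM.

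Most promoters of the muscle isozymes shared sequence features. Sequence was not used to choose the genes, but they were chosen as muscle isozymes, and promoters of other muscle genes were not compared as a set. RefSeq windows were found for 9 of the 10 genes (17 windows) and 12 of the 15 companions (21 windows). CAGCTG, which reads the same on both strands and is 1 form of the E-box, lay in at least 1 window of 7 of the 9 muscle genes, in 2 of the 12 companions (Ckmt1 and Ak3) and in 18.3% of all 27025 genes with a window. By window the shares were 52.9% for the muscle genes, 9.52% for the companions and 16.3% for all 32851 windows. The first of these counts both of the overlapping Mb windows, the second and the third. Of the 9, Ckb, which is not limited to muscle, and Pfkm were without it. With the window cut to the 200 bases before the start, CAGCTG lay in 5 of the 9 muscle genes, in 0 of the 12 companions and in 12.4% of all genes. Any E-box was present in 8 of the 9 genes, 8 of the 12 companions and 75.0% of all genes, and by window in 88.2%, 47.6% and 72.3%. Among all windows with at most 10 CpG the share was 80.4%, so the presence of any E-box did not set the 9 genes apart. The partners printed above (Ckb, Pygb and Pgam1) held no E-box, but the window of Pfkl held 3 and the first window of Eno1 held 2.

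CpG content, which bears on DNA methylation, differed as well. The muscle windows held a median of 4 CpG (range 1 to 22, the highest in Ckb), the companion windows a median of 21 (range 3 to 31), all windows a median of 7 and the windows of genes with a mean of at least 1 FPKM a median of 21. Among all windows with at most 10 CpG, 17.7% held CAGCTG, close to the share over all windows. The MEF2 motif, named for a factor that acts with MyoD in muscle, was found in windows of 3 of the 9 genes (Ckb, Pgam2 and Ak1), in none of the 12 companions and in 3.70% of all genes. Genes with several windows had more chances of a match, and a match of letters does not show that a factor was bound there. DNA methylation and chromatin accessibility at these windows were not analysed here.

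**Figure D5:**
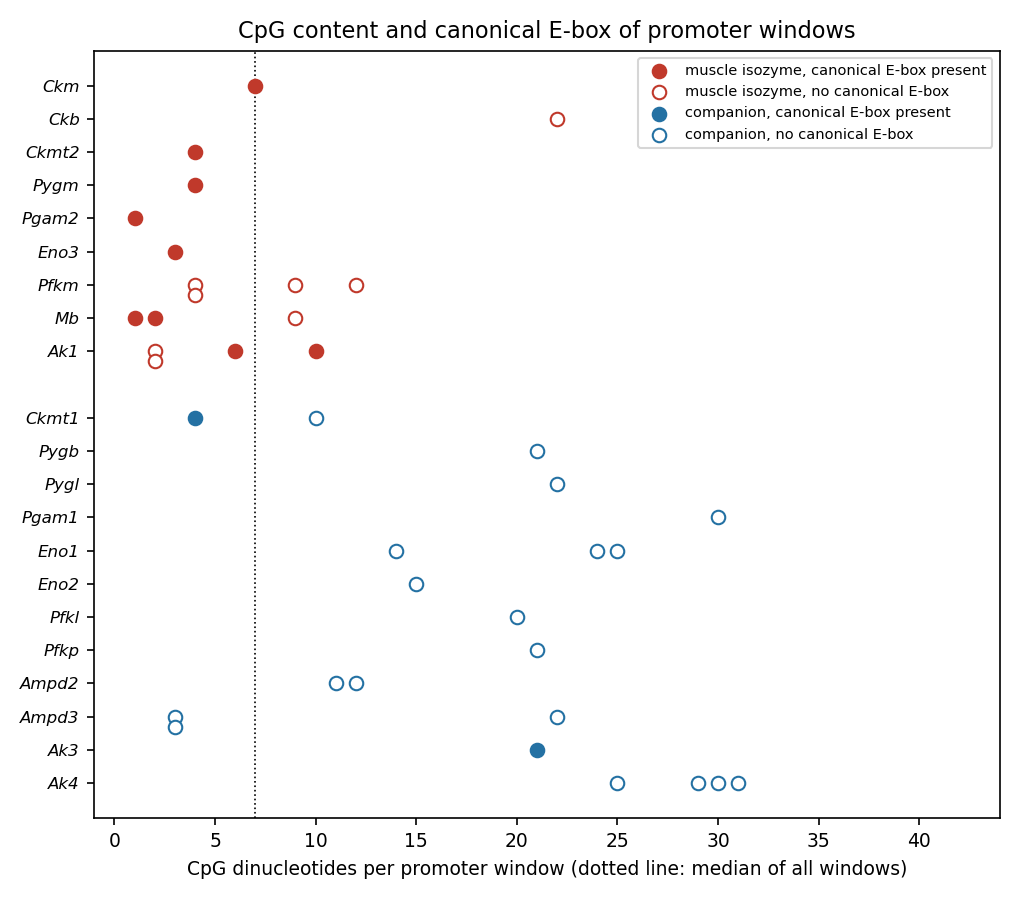
CpG dinucleotides in each promoter window of 300 bases for the muscle isozymes and their companions, 1 point per window, filled where the window holds the canonical E-box and offset vertically where windows of a gene coincide. Muscle windows lie to the left, with a median of 4 CpG against 21 for the companions and 7 for all windows (dotted line), and Ckb, at 22, lies with the companions.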

How the data were processed

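RNA of 2 WT and 2 Tet2 KO libraries was measured. Per the labels and the study's methods, TruSeq v2 libraries were made from total RNA, and the authors trimmed reads, aligned them to mm9 with TopHat2 2.0.13 and estimated expression with Cuffdiff 2.2.1, with CASAVA and FastQC also named in the submitters' processing notes. The gene annotation was not given in the sources used here. The deposited table holds 1 FPKM value per gene and group, and how Cuffdiff combined the libraries was not given. Groups were read from the labels. No read totals come with it, so depth per library, and with it counting error, is unknown. The FPKM summed to a similar total in both groups, and FPKM compares shares of RNA, not amounts per cell. Another 5 columns with the authors' own comparison (fold change, test statistic, p-value, q-value and call) were not used.

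Ratios were computed as log2 with a pseudocount of 1 FPKM, over genes with a mean of at least 1 FPKM. With 1 value per group no test was made, and a gene was counted as past 2-fold or 1.5-fold by its ratio. The members, companions, pathway and marker lists were chosen with earlier results of these data known. Named genes were the members, the companions above 1 FPKM, the pathway genes past 2-fold and the 2 most abundant others, genes beside the members past 2-fold, and markers as lists. A companion gene, and the family share that needs it, is not reported here. Alternatives changed the pseudocount, filter, scaling and fold limit. Starts in the table count from 0, and 1 was added. Positions are mm9, with exons, strand and the spans of Pfkm and Mb from GENCODE vM1. Copies were searched in mm9 with BLAST 2.17.0 (at least 95% identity over 100 bases). Promoter windows and motifs came from RefSeq (GRCm38.p6). Motifs were counted on both strands. Python 3.11.15, numpy 2.4.6, pandas 2.3.3 and matplotlib 3.10.9 were used, and the counts were tested on simulated data.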

Additional observations from a re-analysis of the deposited data

How the results depend on the processing

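No paired analysis was possible because the table holds 1 value per group, and for the same reason no library could be left out. Each of the 8 expressed members was lower in Tet2 KO under every alternative that gave it a value, namely other pseudocounts, filters, TPM scaling and centring. The median ratio of the members was between -0.90 and -0.88 when each of the 8 expressed members was left out in turn. Genes lower past 2-fold numbered 142 over all genes, 215 with a pseudocount of 0.1 FPKM and 224 with none. With a mean of at least 5 FPKM, no companion and no pathway gene was higher past 2-fold (0 of each), and 109 of all genes were, against 243. At 1.5-fold, 6 members and 8 pathway genes were lower, and 435 of all genes were higher and 338 lower. At 3-fold, 0 members, 0 companions and 0 pathway genes in either direction were left, with 81 of all genes higher and 25 lower. Over genes with a mean of at least 50 FPKM, 0.633% were higher and 1.05% lower past 2-fold. With 200 bases before the start, 0 companions held CAGCTG. Adding Eno1b, an alternative chosen after seeing the data, put the Eno3 share in Tet2 KO at 31.7%. The other two such alternatives, leaving out Ckb (median -0.90) and taking the marker lists out of the background (2.04% higher, 1.16% lower), moved little.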

Other observations

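Genes for the synthesis of creatine, the substrate of creatine kinase, had lower values in Tet2 KO as well. Gatm and Gamt, which catalyse the first and the last step of creatine synthesis, were chosen for naming after their values were seen. Gatm was at 48.6 FPKM in WT and 27.8 FPKM in Tet2 KO, a ratio of -0.78, and Gamt at 12.8 and 7.51 FPKM, a ratio of -0.70. Neither promoter window holds CAGCTG, and the window of Gatm has 22 CpG and that of Gamt 14. Slc2a4, the insulin-responsive glucose transporter of muscle and fat, was at 1.76 and 0.816 FPKM, and Fabp3, a fatty acid binding protein of heart and muscle, at 8.07 and 4.45 FPKM. Both were past 1.5-fold, as 2.89% of all genes were in that direction, and were likewise named after their values were seen.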
